A study of Ovis aries with 19 samples.

Results

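The 10 genes described here encode enzymes that break down the branched-chain amino acids leucine, isoleucine and valine, together with the kinase and the phosphatase that set the activity of the central step. They were chosen by name: BCAT2, BCKDHA, BCKDHB, DBT, BCKDK, PPM1K, IVD, MCCC1, ACADSB and HIBCH, and all 10 were found among the 28524 genes of the deposited table. RNA was sequenced from liver and muscle of 10 female sheep (Ovis aries), 5 exposed to excess testosterone before birth and 5 controls. Liver libraries came from 5 prenatal testosterone sheep (numbers 48, 63, 185, 233 and 255) and 4 control sheep (98, 131, 179 and 201). Muscle libraries came from the same 5 prenatal testosterone sheep and from 5 control sheep (98, 131, 132, 179 and 201). The breed, the age at sampling, the testosterone dose, the window of exposure and the muscle sampled are not given in the sources used here.

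All 3 branched-chain amino acids first lose their amino group to a transaminase, BCAT2 in mitochondria, and the resulting keto acids are then oxidised irreversibly by the branched-chain keto acid dehydrogenase complex. BCKDHA and BCKDHB encode the E1 subunits of that complex and DBT its E2 core; BCKDK phosphorylates the E1 alpha subunit and switches the complex off, and PPM1K removes the phosphate and switches it on. Beyond the complex the pathway splits into arms: IVD and MCCC1 act on leucine, ACADSB on isoleucine and HIBCH on valine. In rats, skeletal muscle is known for high transaminase activity and liver for high dehydrogenase activity.

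Recovered reads ran from 8455563 to 14331578 per muscle library and from 10236610 to 16046301 per liver library. The tissue labels matched their markers: ACTA1, skeletal muscle actin, had normalized read counts of 154280 to 304190 in muscle and 0 to 9.12 in liver, and ALB, albumin, had 0 to 16.2 in muscle and 112960 to 1212100 in liver. The 7 hepatocyte markers summed to at most 131 in any muscle library. Members had 29 to 7506 reads per liver library and 36 to 2957 per muscle library, so all 10 passed the minimum mean of 10 in both tissues.

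The pathway was not shifted as a block between the tissues. DBT, PPM1K, ACADSB, IVD, MCCC1 and BCKDHB had lower levels in muscle than in liver, BCKDHA, HIBCH and BCKDK had higher levels in muscle, and BCAT2 did not pass the test. The comparison was made on RPM, the reads of a gene scaled to a common library size over all 19 libraries, with limma adjusted over 14254 genes, and folds between the tissues are on the log2(RPM + 1) scale. Of all genes tested, 79.0% differed between the tissues at an adjusted p under 0.05, 39.3% higher and 39.8% lower in muscle, so 9 of 10 members is a share near the background. The tissues did not overlap in 5 of 10 members, against 45.7% of all genes. Each of these libraries is bulk tissue, in which fewer cells of a type and less RNA per cell cannot be told apart. Levels are not per transcript length and are compared here only for the same gene between tissues.

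Both E1 subunits of the dehydrogenase went opposite ways between the tissues. BCKDHA had 35.5 to 71.0 RPM in 10 muscle libraries (median 50.1), against 6.24 to 20.4 in 9 liver libraries (median 10.7). The tissues did not overlap, and the gene was higher in muscle in 9 of 9 sheep with both tissues. Its level was 4.06-fold higher in muscle (log2 difference 2.02 ± 0.18 SE, limma adjusted p = 7.68e-10). BCKDHB, its partner in the same E1 tetramer, had 28.6 to 41.4 RPM in muscle (median 36.0), against 38.3 to 105 in liver (median 64.9). The ranges met at their edges, but the gene was lower in muscle in 9 of 9 sheep. Its level was 1.93-fold higher in liver (log2 difference -0.95 ± 0.15, limma adjusted p = 5.1e-06).

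DBT, the E2 core that receives the acyl group, lay on the same side as BCKDHB. It had 10.3 to 23.8 RPM in muscle (median 17.8), against 54.7 to 173 in liver (median 83.9). The tissues did not overlap, and the level was 4.95-fold higher in liver (log2 difference -2.31 ± 0.21, limma adjusted p = 4.96e-10). DLD, the E3 subunit that the complex shares with pyruvate and 2-oxoglutarate dehydrogenase, was 4.28-fold higher in muscle (limma adjusted p = 1.67e-11). The complex thus had BCKDHA and DLD higher in muscle, and BCKDHB and DBT higher in liver.

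The ratio of reads between the E1 subunits, taken from the same reads, restated this contrast library by library and is no separate evidence. BCKDHA reads per BCKDHB read averaged 1.45 ± 0.28 in muscle (SD, n = 10) and 0.194 ± 0.103 in liver (SD, n = 9). The lowest muscle ratio, 0.954, lay above the highest liver ratio, 0.331. The size of such a ratio depends on both transcript lengths, so it is read between libraries and not as a ratio of subunits. Treatment groups overlapped in it: 1.39 ± 0.38 in prenatal testosterone muscle and 1.52 ± 0.15 in control muscle (SD, n = 5 each), and 0.190 ± 0.105 in prenatal testosterone liver (n = 5) and 0.199 ± 0.117 in control liver (n = 4).

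The regulators of the complex also split. PPM1K, the activating phosphatase, had 12.7 to 46.0 RPM in muscle (median 29.2), against 43.3 to 428 in liver (median 80.7), and was lower in muscle in 9 of 9 sheep. Its level was 3.55-fold higher in liver (log2 difference -1.83 ± 0.31, limma adjusted p = 1.49e-05). BCKDK, the inhibiting kinase, had 16.5 to 28.8 RPM in muscle (median 21.0), against 7.70 to 26.9 in liver (median 14.1). The tissues overlapped over most of that range. BCKDK was higher in muscle in 7 of 9 sheep, by 1.43-fold in the fit (log2 difference 0.52 ± 0.17, limma adjusted p = 0.00841). The reads of BCKDK per PPM1K read averaged 0.891 ± 0.348 in muscle (SD, n = 10) and 0.221 ± 0.196 in liver (SD, n = 9), with overlap from 0.473 in the lowest muscle library to 0.595 in the highest liver library.

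The enzymes of the arms split as well, with HIBCH of the valine arm higher in muscle and the other 3 lower. IVD, which oxidises isovaleryl-CoA from leucine, had 83.3 to 198 RPM in muscle and 283 to 493 in liver, and was 2.97-fold higher in liver (limma adjusted p = 8.87e-09). MCCC1, the biotin-carrying subunit of the next carboxylase of leucine, had 7.95 to 17.1 in muscle and 19.1 to 48.2 in liver, and was 2.93-fold higher in liver (limma adjusted p = 9.89e-09). ACADSB, the short/branched-chain acyl-CoA dehydrogenase of isoleucine, had 67.8 to 121 in muscle and 215 to 751 in liver, and was 4.40-fold higher in liver (limma adjusted p = 4.46e-09). None of these 3 genes overlapped between the tissues. HIBCH, the hydrolase that frees 3-hydroxyisobutyrate from its CoA in valine breakdown, was higher in muscle in 9 of 9 sheep, with 23.0 to 41.2 RPM in muscle and 12.3 to 27.9 in liver. Its level was 1.76-fold higher in muscle (log2 difference 0.81 ± 0.15, limma adjusted p = 2.57e-05).

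BCAT2, the mitochondrial transaminase, had few reads in both tissues, 3.18 to 5.96 RPM in muscle (median 3.88) and 2.23 to 10.1 in liver (median 4.77). Muscle lay within the range of liver, and the gene was higher in muscle in 3 of 9 sheep. The log2 difference was -0.19 with a 95% interval from -0.58 to 0.21 (limma adjusted p = 0.377). BCAT1, the cytosolic transaminase, had normalized read counts of 0 to 3.41 in muscle and 0 to 3.26 in liver and was below the filter.

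**Figure D1:**
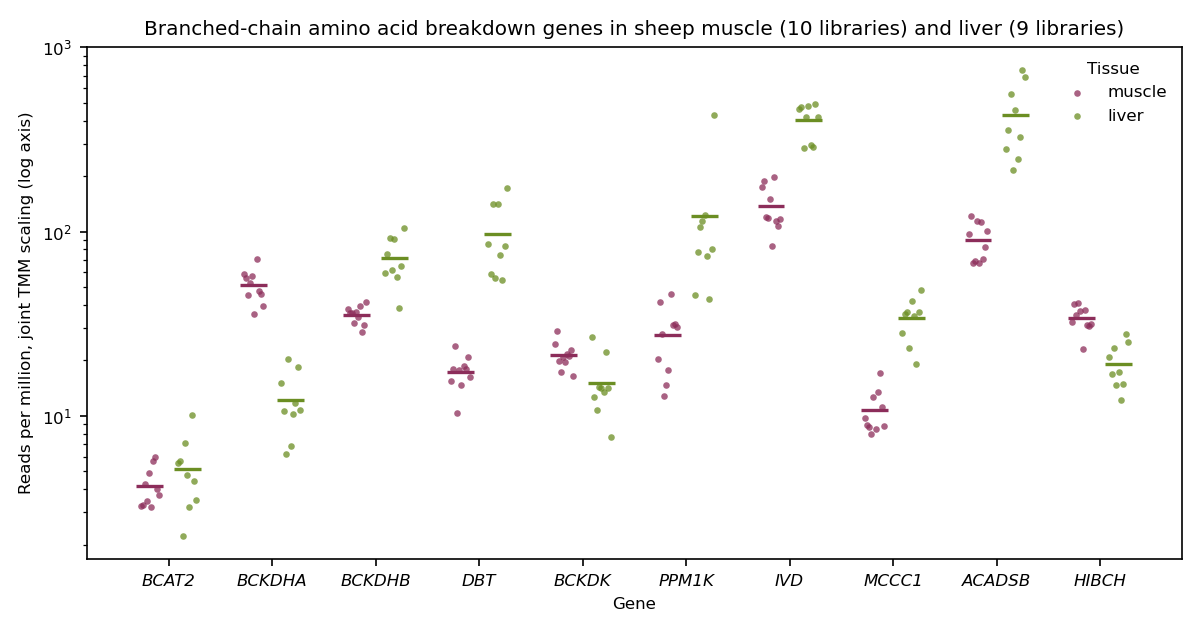
RPM of the 10 genes in each library on a log axis, with muscle (10 libraries) left of liver (9 libraries) for each gene and a bar at the mean of each tissue. BCKDHA stands higher in muscle and DBT, IVD, MCCC1 and ACADSB stand lower in muscle with no overlap, while the muscle range of BCAT2 lies within that of liver; heights of different genes are not per length and are not to be compared.

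Other genes of the pathway, from a list of enzymes and transporters, went both ways between the tissues. Of 22 tested, 5 were higher and 12 lower in muscle at an adjusted p under 0.05 in limma, against 39.3% higher and 39.8% lower of all genes. The 5 higher in muscle were the amino acid transporter genes SLC7A8 (24.7-fold), SLC43A2 (14.9-fold) and SLC3A2 (1.64-fold), DLD, and ACAD8, the isobutyryl-CoA dehydrogenase of the valine arm (1.32-fold). The isoleucine enzymes ECHS1, HSD17B10 and ACAT1 were lower in muscle in 3 of 3 cases, with HSD17B10 37.6-fold higher in liver (limma adjusted p = 3.94e-18). The 6 genes that carry propionyl-CoA to succinyl-CoA (PCCA, PCCB, MCEE, MMUT, MMAA and MMAB) were lower in muscle in 6 of 6. MCCC2, the second subunit of the leucine carboxylase, did not pass the test (log2 difference 0.02, limma adjusted p = 0.893), although MCCC1 did. Of 10 other mitochondrial enzymes measured for comparison, 9 were higher in muscle, among them the citrate synthase gene CS by 15.7-fold and PDHA1 of pyruvate dehydrogenase by 13.2-fold. The median log2 difference was 2.16 over those 10 genes, against -1.25 over the 10 members and 0.0035 over all 14254 genes.

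The question of the study's design was what prenatal testosterone did within each tissue. In liver, 0 of 10 members passed an unadjusted p of 0.05 in limma, against 3.99% of all 13640 genes tested. The adjusted p was 0.999 for each of the 10, and 0.00733% of all liver genes had an adjusted p under 0.05. EdgeR and DESeq2 on the recovered reads also gave 0 members at an unadjusted p under 0.05. The smallest unadjusted p was 0.207, for ACADSB. Log2 changes, prenatal testosterone over control, lay between -0.10 for BCKDK and 0.51 for ACADSB, and both groups overlapped in 10 of 10 members. Groups did not overlap in 1.54% of all liver genes. The 95% interval lay within 1 log2 unit of 0 for 7 of 10 members, all but DBT, PPM1K and ACADSB, so a 2-fold change lay outside the interval for those 7. For the other 3 a 2-fold rise lay inside the interval and a 2-fold fall outside it.

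In liver, normalized read counts are given below for sheep 48, 63, 185, 233 and 255 of the prenatal testosterone group and then for sheep 98, 131, 179 and 201 of the control group. ACADSB had 4955, 2710.0, 3529.7, 8035 and 7668 in prenatal testosterone livers, against 2852, 3740.3, 6025 and 2227 in control livers. Treated sheep 233 and 255 stood above every control, and treated sheep 63 lay below 3 of the 4 controls. The means were 5379.5 ± 2399 in prenatal testosterone livers and 3711 ± 1663 in control livers (SD, n = 5 and 4), and the log2 change was 0.51 with a 95% interval from -0.32 to 1.35.

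The mean of PPM1K in treated livers rested on 1 animal. It had 1343, 806, 466, 863 and 4755 in prenatal testosterone livers, against 461, 817, 1141 and 1185 in control livers. Sheep 255 held more than 3 times the next value, and the other 4 treated livers lay within or near the range of the controls. The means were 1647 ± 1766 in prenatal testosterone livers and 901 ± 336 in control livers, a ratio of 1.83. Without sheep 255 the treated mean was 869 and the ratio 0.965. The log2 change of PPM1K was 0.45 ± 0.56 (SE), with a 95% interval from -0.76 to 1.67 (limma adjusted p = 0.999).

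BCKDK had 154, 147, 239, 151 and 85.6 in prenatal testosterone livers, against 274, 134, 115 and 149 in control livers. The lowest kinase level of all 9 livers was in sheep 255, the animal with the highest phosphatase level, and the highest kinase level was in control sheep 98, the animal with the lowest phosphatase level. The log2 change of BCKDK was -0.10 ± 0.34 (limma adjusted p = 0.999).

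The dehydrogenase subunits spread widely in both groups of livers. BCKDHA had 74.3, 111, 127, 197 and 119 in prenatal testosterone livers, against 154, 112, 67.2 and 211 in control livers. BCKDHB had 992, 616, 412, 694 and 1169 in prenatal testosterone livers, against 605, 791, 989 and 639 in control livers. DBT had 1533, 815, 588, 897 and 1924 in prenatal testosterone livers, against 876, 621, 1523 and 582 in control livers. BCKDHB and DBT were both highest in treated sheep 255 and 48 and control sheep 179, and both were low in treated sheep 185. Log2 changes were -0.07 ± 0.36 for BCKDHA, -0.03 ± 0.31 for BCKDHB and 0.33 ± 0.39 for DBT (limma adjusted p = 0.999 for each).

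Among the remaining liver members, IVD averaged 4293 ± 1065 in prenatal testosterone livers and 4280.1 ± 868 in control livers. MCCC1 averaged 393 ± 122 in prenatal testosterone livers and 325 ± 73.6 in control livers. HIBCH averaged 212 ± 73.1 in prenatal testosterone livers and 199 ± 43.6 in control livers. For all 3 genes the SD in each group exceeded the difference between the means. BCAT2 averaged 56.4 ± 30.3 in prenatal testosterone livers and 53.5 ± 20.9 in control livers, with 1 treated animal, sheep 185, at 109 and the other 4 between 34.8 and 51.9.

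BCAT2 overlaps the long non-coding RNA genes LOC105608433 and LOC132657776 in the sheep assembly ARS-UI_Ramb_v3.0, of which the second was not analysed here. No source used here gives the annotation or the strand setting behind the deposited values, so reads of 2 overlapping genes cannot be told apart. LOC105608433, looked at after its values were seen, had 566, 576, 282, 333 and 1697 in prenatal testosterone livers, against 77.0, 117, 53.9 and 206 in control livers. The groups did not overlap, as in 1.54% of all liver genes. The log2 change was 2.46 ± 0.51 (SE), with an unadjusted limma p of 0.000422 and a limma adjusted p of 0.835. In muscle the same locus had 0 to 2.18. BCAT2 itself overlapped between the groups in both tissues, and the part of shared reads in its level was not tested. By the same table BCKDHA overlaps B3GNT8, BCKDHB overlaps LOC114116181 and HIBCH overlaps a transfer RNA gene, while the other 6 members overlap no gene.

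**Figure D2:**
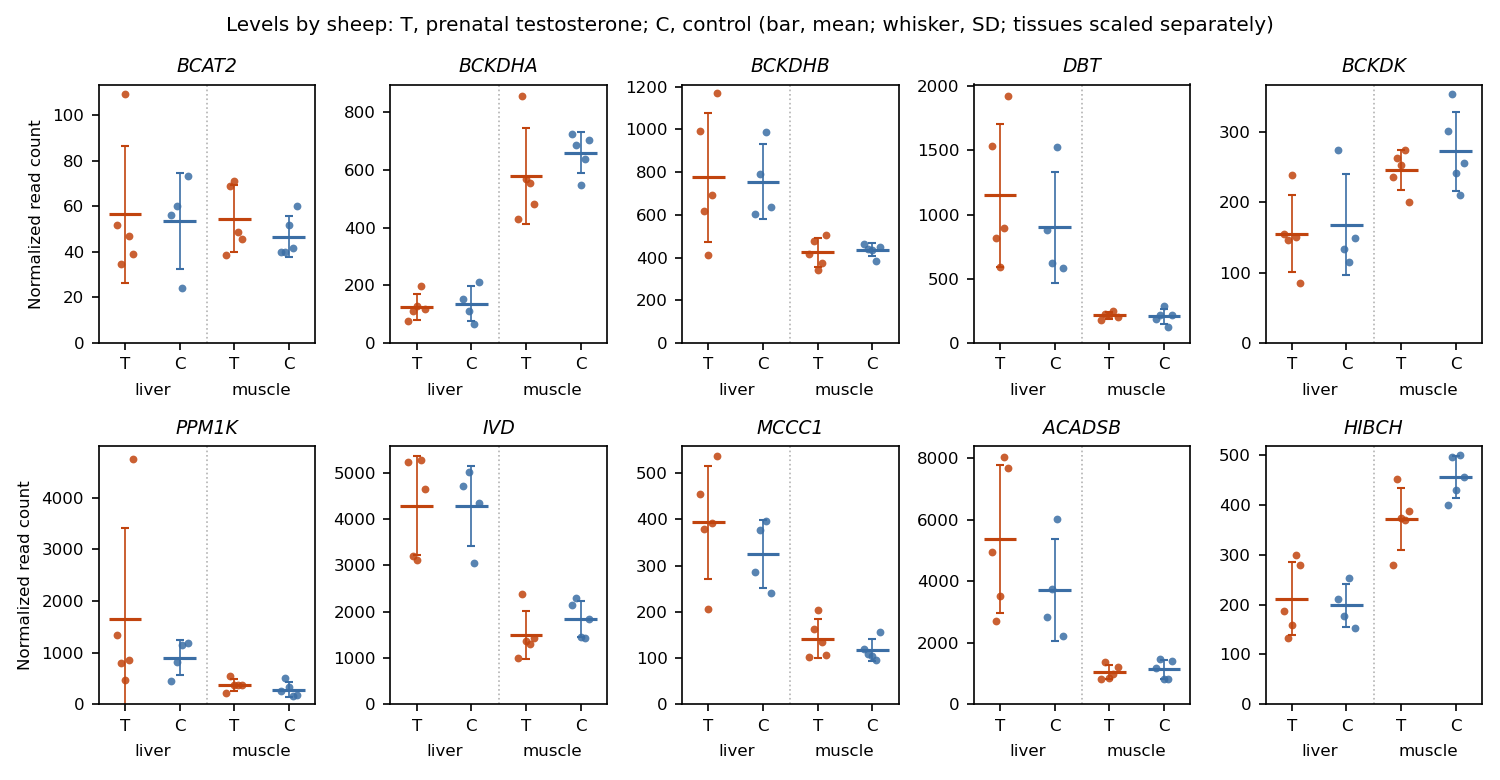
Normalized read counts of each gene by tissue and group, with 1 point per sheep, a bar at the mean and a whisker of 1 SD (cut at 0 for PPM1K in liver); T is prenatal testosterone and C is control. Groups overlap in every panel and tissue, sheep 255 stands at 4755 for PPM1K in treated liver, and HIBCH in muscle shows 372 ± 61.9 in treated sheep and 455 ± 42.8 in control sheep. The scaling was made in each tissue on its own, so liver and muscle heights are not on one scale.

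In muscle, HIBCH was the 1 member of 10 with an unadjusted p under 0.05 in limma, against 14.4% of all 12966 genes tested, a share near the background. Normalized read counts in muscle are given for sheep 48, 63, 185, 233 and 255 of the prenatal testosterone group and then for control sheep 98, 131, 132, 179 and 201. HIBCH had 279, 452, 374, 369 and 386 in prenatal testosterone muscles, against 399, 495, 429, 499 and 455 in control muscles. Treated sheep 63 lay within the range of the controls and the other 4 treated sheep lay below every control. The means were 372 ± 61.9 in prenatal testosterone muscles and 455 ± 42.8 in control muscles (SD, n = 5 each). The log2 change was -0.30 ± 0.14 (SE), with a 95% interval from -0.60 to -0.0078. Its unadjusted p was 0.045 and its limma adjusted p 0.338, so the gene did not pass the adjusted threshold, which 0.00771% of all muscle genes passed. The unadjusted p of HIBCH exceeded 0.05 with TMM scaling, edgeR, DESeq2 or 1 fit of all 19 libraries, and in 7 of 10 fits that left out 1 library.

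All 10 members overlapped between the groups in muscle, while groups did not overlap in 3.29% of all muscle genes. Log2 changes lay between -0.33 for IVD and 0.48 for PPM1K, and adjusted p between 0.338 and 0.890. The 95% interval lay within 1 log2 unit of 0 for 9 of 10 members, all but PPM1K.

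PPM1K had 214, 556, 371, 381 and 372 in prenatal testosterone muscles, against 251, 509, 339, 154 and 179 in control muscles. Treated sheep 185, 233 and 255 lay close together, above 4 of the 5 controls. The log2 change was 0.48 with a 95% interval from -0.19 to 1.14 (limma adjusted p = 0.505). BCKDK had 236, 263, 252, 274 and 201 in prenatal testosterone muscles, against 302, 354, 241, 210.1 and 256 in control muscles, and its log2 change was -0.13 ± 0.15 (limma adjusted p = 0.728). BCKDK reads per PPM1K read averaged 0.703 ± 0.246 in prenatal testosterone muscles and 1.08 ± 0.35 in control muscles, and the groups overlapped, at 0.473 to 1.10 in prenatal testosterone muscles and 0.696 to 1.43 in control muscles.

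Of the dehydrogenase subunits in muscle, BCKDHA had 430.2, 857, 569, 555 and 483 in prenatal testosterone muscles, against 724, 687, 548, 637 and 705 in control muscles. Treated sheep 63 was the highest of all 10 muscles for BCKDHA and treated sheep 48 the lowest. BCKDHB had 417, 478, 342, 375 and 506 in prenatal testosterone muscles, against 464, 442, 437, 384 and 451 in control muscles. DBT had 178, 224, 216, 252 and 198 in prenatal testosterone muscles, against 189, 219.8, 288, 125 and 217 in control muscles. For BCKDHB and DBT the means differed by less than either SD: 424 ± 68.7 in prenatal testosterone muscles and 436 ± 30.6 in control muscles for BCKDHB, and 214 ± 28.0 in prenatal testosterone muscles and 208 ± 58.9 in control muscles for DBT. Limma adjusted p was 0.569 for BCKDHA and 0.890 for both others.

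IVD, of the leucine arm, had 1009.6, 2393, 1362, 1298 and 1430.1 in prenatal testosterone muscles, against 2138, 2307, 1456, 1443 and 1849.8 in control muscles. Treated sheep 63 was above every control and the other 4 treated sheep were below every control. The log2 change was -0.33 with a 95% interval from -0.78 to 0.12 (limma adjusted p = 0.501). MCCC1 averaged 142 ± 42.0 in prenatal testosterone muscles and 117 ± 23.1 in control muscles. ACADSB averaged 1054 ± 238 in prenatal testosterone muscles and 1148 ± 309.9 in control muscles. BCAT2 averaged 54.6 ± 14.6 in prenatal testosterone muscles and 46.7 ± 8.99 in control muscles, and limma adjusted p for these 3 genes was 0.604, 0.843 and 0.715 in that order.

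Sheep 63 and 48 set much of the spread in treated muscle. Sheep 63 lay above its group mean for 10 of 10 members and sheep 48 below it for 10 of 10. Without sheep 63, 3 members had an unadjusted p under 0.05 in limma: HIBCH, IVD and BCKDHA. In that fit 920 genes were higher and 990 lower at that threshold, of 12982 tested. Without sheep 48, or without control sheep 131, PPM1K was the 1 member under 0.05 and HIBCH was not. Without sheep 48, 781 genes were higher and 651 lower of 12948, and without sheep 131, 881 were higher and 753 lower of 12976.

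Other enzyme and cell classes were measured in the same muscles, and no gene of these lists had an adjusted p under 0.05 in limma. The 10 other mitochondrial enzymes had log2 changes below 0 in 10 of 10. Of them 4 (CS, OGDH, NDUFS1 and PDHA1) had an unadjusted p under 0.05, against 7.0% of all muscle genes in that direction, and their summed counts were 27625 to 55703 in prenatal testosterone muscles and 37561 to 69316 in control muscles. The 9 skeletal muscle markers had log2 changes below 0 in 9 of 9, with 0 of 9 at an unadjusted p under 0.05 and sums of 906860 to 1859100 in prenatal testosterone muscles and 1809200 to 2143700 in control muscles. The 7 fast fibre markers were below 0 in 7 of 7, with ACTN3 alone at an unadjusted p under 0.05, against 7.0% of all muscle genes in that direction. Their sums were 583710 to 1120100 in prenatal testosterone muscles and 1123700 to 1312900 in control muscles. These sums did not overlap, by a narrow gap, while each of the 7 genes overlapped between the groups on its own. Of all single muscle genes, 3.29% did not overlap. Slow fibre markers were above 0 in 3 of 6 and below it in 3, with 0 of 6 at an unadjusted p under 0.05 and sums of 77508 to 105840 in prenatal testosterone muscles and 50858 to 156610 in control muscles. MYH7, planned as a slow fibre marker, was not among these 6.

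Adipocyte markers were below 0 in 6 of 6 tested in muscle, with sums of 1444 to 2946 in prenatal testosterone muscles and 1777 to 3266 in control muscles. Of them 3 (ADIPOQ, PLIN1 and FABP4) had an unadjusted p under 0.05 in limma, against 7.0% of all muscle genes in that direction. The sums include LPL, with means of 1174.5 in prenatal testosterone muscles and 1169.9 in control muscles. These means were 70.9 and 215 for ADIPOQ, 264 and 657 for FABP4, and 25.4 and 62.8 for PLIN1. In liver adipocyte markers were below 0 in 4 of 4 tested, with sums of 108 to 305 in prenatal testosterone livers and 223 to 522 in control livers. Of them 3 (PLIN1, CIDEC and LPL) had an unadjusted p under 0.05 in limma, against 3.99% of all liver genes in both directions. ADIPOQ, LEP and LIPE were below the minimum mean of 10 in liver and were not tested. ADIPOQ averaged 0.442 in prenatal testosterone livers and 0 in control livers, while LEP and LIPE averaged lower in prenatal testosterone livers. CIDEC was 2.35-fold higher in liver than in muscle (limma adjusted p = 0.000499). Whether these genes mark adipocytes in liver was not tested. Skeletal muscle markers in liver were below 0 in 4 of 4 tested, with sums of 154 to 257 in prenatal testosterone livers and 224 to 324 in control livers. Among them NEB, the giant thin-filament protein nebulin, averaged 16.1 ± 7.30 in prenatal testosterone livers and 54.9 ± 11.9 in control livers, groups that did not overlap (limma adjusted p = 0.835). NEB had 6 to 74 reads per liver library, and groups did not overlap in 1.54% of all liver genes. Endothelial markers in muscle were below 0 in 5 of 5, with sums of 2058 to 3746 in prenatal testosterone muscles and 2746 to 4193 in control muscles. TEK alone of them had an unadjusted p under 0.05 in limma, against 7.0% of all muscle genes in that direction. In muscle fibroblast markers were above 0 in 4 of 6 and macrophage markers in 1 of 3 tested. In liver endothelial markers were above 0 in 1 of 5, fibroblast markers in 4 of 6 and macrophage markers in 1 of 4. None of these had an unadjusted p under 0.05 in limma. T and NK cell markers were above 0 in 6 of 6 tested in muscle, with sums of 169 to 299.8 in prenatal testosterone muscles and 134 to 201 in control muscles. LCK alone of them had an unadjusted p under 0.05 in limma, against 14.4% of all muscle genes in both directions. In liver T and NK cell markers were above 0 in 7 of 7, with sums of 314 to 617 in prenatal testosterone livers and 239 to 402 in control livers. Of them 2 (CD5 and LCK) had an unadjusted p under 0.05 in limma, against 3.99% of all liver genes in both directions. No marker of these lists was at 0 in every library of its tissue, and their part in the values of HIBCH, IVD and PPM1K was not tested.

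The treatment effect in muscle minus that in liver was tested over all 19 libraries. Of the 10 members, 0 had an unadjusted p under 0.05 in limma, against 4.9% of 11697 genes. Adjusted p ran from 0.973 to 0.998, while 0.00855% of all genes had an adjusted p under 0.05. Both count tests gave 0 members here as well. ACADSB had the lowest unadjusted p, 0.171, with a log2 change of -0.11 in muscle and 0.51 in liver and a difference of -0.62 (95% interval -1.53 to 0.29). HIBCH had -0.30 in muscle and 0.05 in liver, with a difference of -0.35 (95% interval -0.99 to 0.29, limma adjusted p = 0.973). HIBCH was therefore not shown to differ in its treatment effect between the tissues.

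**Figure D3:**
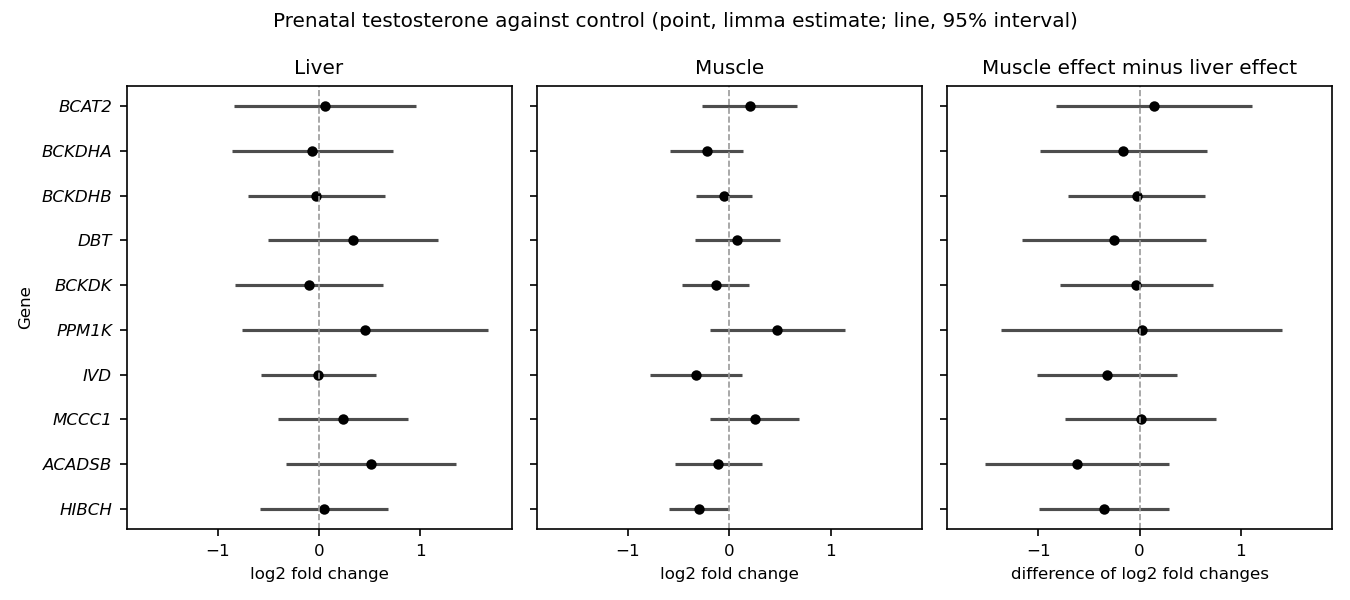
Log2 change of each gene, prenatal testosterone over control, in liver (5 and 4 sheep) and in muscle (5 and 5 sheep), and the difference of both effects, with the limma estimate as a point and its 95% interval as a line. Every liver interval and every interval of the difference spans 0, and in muscle the interval of HIBCH alone ends just below 0, at -0.0078.

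The spread between sheep differed among the members. PPM1K had the largest residual SD among them in both tissues, 1.04 log2 units in liver and 0.60 in muscle, above 93.1% of all liver genes and 87.6% of all muscle genes. BCKDHB and HIBCH were the steadiest in muscle, at 0.18 and 0.20. In each tissue 6 of 10 members lay above the median of all genes, which was 0.52 in liver and 0.31 in muscle.

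Relations between parts of the complex were computed for 4 pairs in each tissue, 8 in all, on log2 normalized counts. As a background, the median absolute r over all gene pairs was 0.41 in liver and 0.27 in muscle. The share of all gene pairs with an r as large as those below was not computed. In 9 livers BCKDK and PPM1K ran in opposite directions, with Pearson's r = -0.87 (exact permutation p = 0.00245, adjusted 0.0196) and Spearman's rho = -0.57 (exact permutation p = 0.121, adjusted 0.322). On deviations from the group means r was -0.88. Without sheep 98 and 255, the libraries farthest from the median of BCKDK, r was -0.73 over 7 livers (exact permutation p = 0.0857), no longer past the threshold in this smaller set. With any 1 liver left out r ran from -0.90 to -0.83. In 10 muscles the same pair gave r = 0.42 (permutation p = 0.224 over 100000 resamples, adjusted 0.359) and rho = 0.45 (permutation p = 0.192, adjusted 0.340), and the difference between the tissues was not tested.

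BCKDHB and DBT, E1 beta and E2 of the complex, ran together in liver, with r = 0.84 (exact permutation p = 0.0051, adjusted 0.0204) and rho = 0.75 (exact permutation p = 0.0255, adjusted 0.204). On deviations from the group means r was 0.88. Without sheep 185 and 255 r was 0.75 over 7 livers (exact permutation p = 0.053), and with any 1 liver left out it ran from 0.76 to 0.93. In muscle r was 0.11 (permutation p = 0.760, adjusted 0.760), 0.53 without treated sheep 185 and 233, and -0.21 to 0.26 with any 1 library left out. The other 4 relations, BCKDHA with BCKDHB and BCKDHA with BCKDK in each tissue, had Pearson's r between -0.50 and 0.50 and adjusted p of 0.344 to 0.574.

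**Figure D4:**
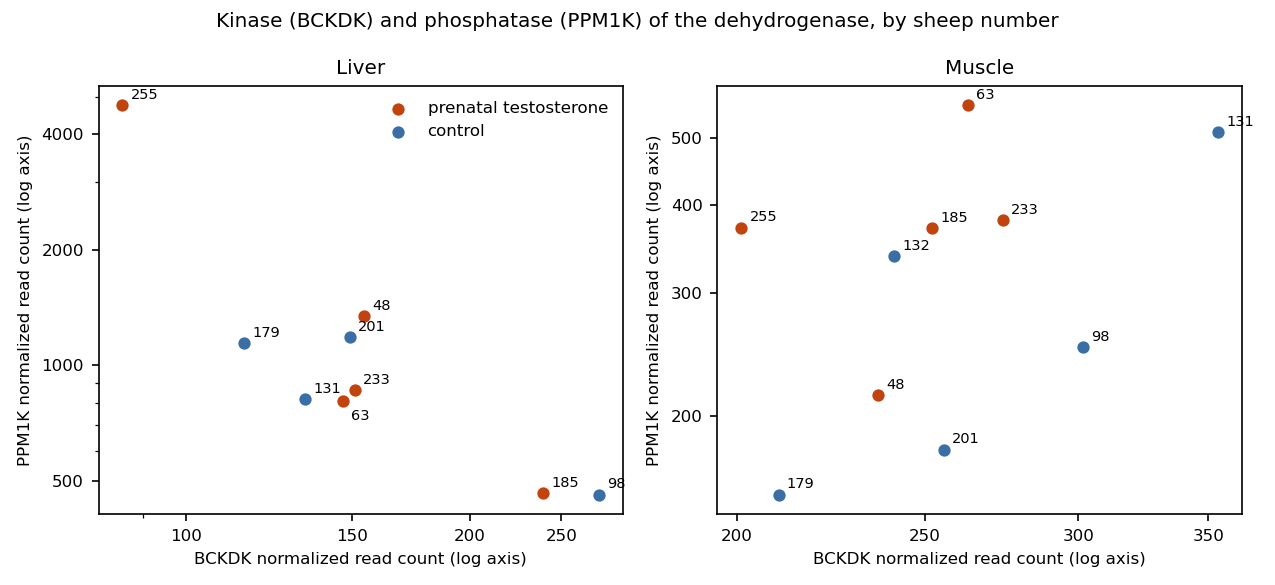
Normalized read counts of PPM1K against BCKDK for each sheep, on log axes, in 9 livers and 10 muscles, with points numbered by sheep and coloured by group. In liver sheep 255 has the most phosphatase (4755) and the least kinase (85.6), and sheep 98 has the most kinase (274) and the least phosphatase (461); in muscle r was 0.42.

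Over all 45 pairs of members, Pearson's r was positive in 40 pairs in muscle (median 0.31) and in 26 pairs in liver (median 0.25), as a description, since the pairs share libraries and members. Among all gene pairs 49.8% were positive in muscle and 49.99% in liver. The median absolute r was 0.31 over member pairs and 0.27 over all gene pairs in muscle, and 0.54 and 0.41 in liver. In liver BCKDK (r = -0.48) and BCAT2 (r = -0.27) ran against the mean profile of the members, BCKDHA was near 0 (r = 0.02), and HIBCH (r = 0.82) and ACADSB (r = 0.78) lay closest to it. In muscle IVD (r = 0.88) lay closest, and BCKDHB (r = 0.39) least close. Each r in this comparison includes the gene in the mean it is set against.

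The genes outside the members whose levels most resembled that mean profile were, in 9 livers, SLC31A1 (r = 0.93), DCAF10 (r = 0.93), CHML (r = 0.93), ASAH2 (r = 0.92) and SMCHD1 (r = 0.92), out of 13630 searched. In 10 muscles they were ALDH4A1 (r = 0.92), LOC114112279 (r = 0.91), NIPAL3 (r = 0.90), HSD17B10 (r = 0.89) and ADPRHL1 (r = 0.88), out of 12956 searched. HSD17B10 is itself an enzyme of isoleucine breakdown. The highest r among so many genes over so few libraries is large by selection.

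Of the other 24 genes of the pathway that were in the table, 21 were tested in liver and 0 passed an unadjusted p of 0.05 in limma, against 3.99% of all liver genes, with a median log2 change of -0.14. AUH, the hydratase of the leucine arm, averaged 335 ± 176 in prenatal testosterone livers and 197 ± 56.1 in control livers (log2 change 0.65 ± 0.37, limma adjusted p = 0.999). The unadjusted p of AUH was under 0.05 with array weights, in 1 fit of all 19 libraries and without treated sheep 185. In those settings 694, 427 and 337 of all liver genes were higher at that threshold, in that order. The main fit had 248. MMAA, which helps load the cobalamin cofactor of methylmalonyl-CoA mutase, averaged 206 ± 19.7 in prenatal testosterone livers and 161 ± 17.7 in control livers (log2 change 0.36 ± 0.21, limma adjusted p = 0.999). MCCC2 averaged 334 ± 86.6 in prenatal testosterone livers and 288 ± 121 in control livers. DLD averaged 1036 ± 285 in prenatal testosterone livers and 1122 ± 218 in control livers.

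In muscle 23 of these genes were tested, and 4 had an unadjusted p under 0.05, all lower in treated sheep and none past an adjusted p of 0.05 in limma, against 7.0% of all muscle genes in that direction. PCCB, the beta subunit of propionyl-CoA carboxylase, averaged 408 ± 102 in prenatal testosterone muscles and 662 ± 159 in control muscles (log2 change -0.70 ± 0.19, unadjusted p = 0.00228, limma adjusted p = 0.165). DESeq2 on the recovered reads gave PCCB an adjusted p of 0.0414, and it ran from 0.138 to 0.625 over the other alternatives. In muscle DESeq2 called 145 genes higher and 95 lower of 12966 at an adjusted p under 0.05, against 1 and 0 in limma. DLD averaged 4429 ± 1107 in prenatal testosterone muscles and 6424 ± 1450 in control muscles (log2 change -0.54 ± 0.19, unadjusted p = 0.0155, limma adjusted p = 0.25).

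HIBADH, the dehydrogenase that acts on the product of HIBCH, averaged 401 ± 38.5 in prenatal testosterone muscles and 525 ± 82.9 in control muscles (log2 change -0.38 ± 0.13, unadjusted p = 0.0132, limma adjusted p = 0.240). SLC3A2, the heavy chain of the amino acid transporters at the cell surface, averaged 640.03 ± 130 in prenatal testosterone muscles and 922 ± 311 in control muscles (log2 change -0.48 ± 0.22, unadjusted p = 0.0489, limma adjusted p = 0.346). Of the other valine arm enzymes, ACAD8 averaged 615 ± 156 in prenatal testosterone muscles and 519.9 ± 85.6 in control muscles, and ALDH6A1 averaged 1003 ± 214 in prenatal testosterone muscles and 1152 ± 156 in control muscles (limma adjusted p = 0.601 and 0.550 in that order).

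KLF15, a transcription factor known in mice to raise BCAT2 in muscle, averaged 319 ± 151 in prenatal testosterone muscles and 316 ± 76.7 in control muscles (limma adjusted p = 0.906). In liver KLF15 averaged 415 ± 106 in prenatal testosterone livers and 485 ± 177 in control livers (limma adjusted p = 0.999). Of 5 regulator genes tested in each tissue, 0 had an unadjusted p under 0.05 in limma, a count near the background of 14.4% in muscle and 3.99% in liver. Their log2 changes were below 0 in 5 of 5 in muscle and in 4 of 5 in liver, although KLF15 in muscle turned above 0 in edgeR, DESeq2 and with array weights.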

How the data were processed

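Liver and muscle RNA of female sheep was made into TruSeq RNA libraries, per the labels' protocols. Per the submitters' processing notes, Trimmomatic, STAR and featureCounts 1.6.1 were used to trim, align and count reads. No source used here names the build, annotation or strand setting. Each deposited signal value is the authors' normalized read count of 1 gene in 1 library. 100% of values came out as whole reads within 0.01 read, and median-of-ratios size factors recomputed within each tissue matched the scaling within a relative 1.9e-10. Each replicate was a separate sheep, and no 2 libraries of a group agreed within sampling noise (lowest chi-square per degree of freedom 19.4 over 36 pairs).

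Genes with a mean of at least 10 were tested with limma 3.58.1 (R 4.3.3) on log2(value + 1) (trend, Benjamini-Hochberg, threshold 0.05), in each tissue on its own. Such fold changes understate the change of low genes. The difference of both effects was fitted on all 19 libraries. Tissue levels were fitted on log2(RPM + 1), from recovered reads scaled together by TMM, with treatment as a covariate. Between-tissue values depend on that scaling. Correlations were tested by two-sided permutation, exact over 9 livers or fewer libraries and with 100000 resamples over 10 muscles. The sheep number pairs both tissues, since the labels give 1 animal per number: deviations correlated at a median of 0.177 within a sheep and -0.0172 between sheep, and above 0.1 in 9 of 9 sheep.

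Results were recomputed with edgeR 4.0.16 and DESeq2 1.42.0 on recovered reads, with array weights, with TMM or median-of-ratios scaling, with pseudocounts of 0.25 and 4, with a minimum mean of 50 or none, in 1 fit of both tissues, with sheep as a block, and without each library or sheep in turn. Those for correlations and read ratios were added after seeing the data. The members and gene lists were chosen with earlier results of these data known. Named genes were all members, DLD, BCAT1, MCCC2, KLF15 and every listed pathway gene at an unadjusted p under 0.05. The 2 with the smallest p per tissue and the 5 most alike per tissue were also named. Outside this rule, ACAD8 and ALDH6A1 were given in muscle as the other valine arm enzymes, and further listed genes in the tissue comparison. The procedure was tested on simulated counts, with an outcome not reported here. For the difference and the tissue levels, those counts gave both tissues the replicate spread of 1 tissue. They therefore do not mirror the unlike spreads of liver and muscle.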

Additional observations from a re-analysis of the deposited data

Results flagged for a closer look

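In 62 groups of 4 or 5 sheep, a gap between the extreme sheep and the next, divided by the range of the group, was compared with Dixon's 95% critical value (0.829 for 4 sheep, 0.710 for 5). It passed in 3 groups, and chance flags about 1 in 20. PPM1K in liver of prenatal testosterone sheep 255 had a gap of 0.795 of the range, at 4755 against 466 to 1343 in the other 4; the mean was 1647 with that sheep and 869 without. BCAT2 in liver of prenatal testosterone sheep 185 had a gap of 0.770, at 109 against 34.8 to 51.9, and a mean of 56.4 with that sheep and 43.2 without. MCCC2 in liver of the same sheep 185 had a gap of 0.748, at 483 against 273 to 326, and a mean of 334 with that sheep and 297 without.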

How the results depend on the processing

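The tissue contrast gave 9 members past the adjusted threshold under every alternative, the sheep block and each left-out sheep included, and liver gave 0 members at an unadjusted p under 0.05 under every alternative. Muscle gave 1 member, but 0 with TMM scaling within the tissue, edgeR, DESeq2 or 1 fit of all 19 libraries, and 0 to 3 with a library left out. The 3 came without sheep 63, where 920 genes were higher and 990 lower of 12982 at that threshold. The difference of effects gave 0 members, and 0 to 1 with a sheep left out (ACADSB without sheep 63 or 179). Without sheep 63, 288 genes were above 0 and 304 below it at that threshold, of 11722 tested. Without sheep 179 these counts were 739 and 722 of 11722, and in the main fit 299 and 274 of 11697. With the sheep as a replicate block the difference gave 0 members, and no call changed; MCCC1 was -0.019 there. The cause of these changes was not tested.

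Log2 changes near 0 turned sign in some fits. In liver array weights gave -0.32 for BCAT2 and 0.066 for BCKDHB, edgeR gave 0.014 for BCKDHB, and DESeq2 gave 0.038 for BCKDHB and 0.0044 for IVD. In muscle KLF15 was 0.0051 with array weights, 0.031 with edgeR and 0.012 with DESeq2. For the difference, array weights gave 0.054 for BCKDHA, 0.076 for BCKDK and -0.027 for MCCC1, TMM gave 0.014 for BCKDHB and 0.0073 for BCKDK, edgeR gave 0.0055 for BCKDK and -0.42 for PPM1K, and DESeq2 gave -0.47 for PPM1K.

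With 1 library left out, liver changes ran from -0.28 to 0.24 for BCAT2, -0.36 to 0.18 for BCKDHA, -0.20 to 0.18 for BCKDHB, -0.27 to 0.16 for BCKDK, -0.057 to 0.78 for PPM1K, -0.16 to 0.10 for IVD, -0.093 to 0.20 for HIBCH and -0.40 to 0.012 for KLF15. Muscle changes ran from -0.12 to 0.020 for BCKDHB, -0.090 to 0.21 for DBT and -0.31 to 0.15 for KLF15. Differences ran from -0.088 to 0.45 for BCAT2, -0.38 to 0.13 for BCKDHA, -0.21 to 0.10 for BCKDHB, -0.25 to 0.15 for BCKDK, -0.31 to 0.52 for PPM1K and -0.34 to 0.26 for MCCC1, and r of BCKDHB and DBT in muscle ran from -0.21 to 0.26. Of the members BCAT2 had the fewest reads, 29 to 106 per liver library. With 4 or 5 sheep a group, a 2-fold rise, but not a 2-fold fall, stayed within the liver interval of DBT, PPM1K and ACADSB.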
